A study of Homo sapiens with 20 samples.

Results

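The 84 genes for proteins of the cytosolic ribosome were followed through 20 rhabdomyosarcoma xenograft tumors. The genes were taken from the deposited table by name and biotype alone, as protein-coding genes whose symbol has the form RPL or RPS with a number, RPLP0 to RPLP2, or RPSA, so no expression value chose them. They comprise 52 genes of the large subunit and 32 of the small subunit among 44294 genes with values, and all 84 lay above 0 in all 20 libraries and passed the filter on low values. Of the 84, 77 encode the standard proteins and 7 are duplicated or tissue-restricted copies (RPL3L, RPL7L1, RPL10L, RPL22L1, RPL26L1, RPL39L and RPS27L). The naming rule leaves out, among others, FAU, which encodes a ribosomal protein fused to a ubiquitin-like protein, and RACK1, a protein of the small subunit.

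The ribosome is built from ribosomal RNA and one copy of most of its proteins, with the small subunit reading the mRNA and the large subunit joining amino acids. The genes for these proteins lie scattered over the genome, are transcribed strongly in growing cells, and many of their mRNAs begin with an uninterrupted run of pyrimidines, the 5′ terminal oligopyrimidine (TOP) tract, through which mTOR signalling controls their translation. MYC and MYCN raise transcription of ribosomal protein genes in many tumors. The 84 genes lay on 21 chromosomes, with 12 on chromosome 19 and 9 on chromosome 3 (GENCODE 29, GRCh38).

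RD is a line of embryonal rhabdomyosarcoma, a muscle-lineage tumor, and SJRH30 a line of the alveolar form that carries a PAX3-FOXO1 fusion. Each was grafted into NOD/SCID mice, which lack functional lymphocytes, either with a non-targeting control or with TLE3 knocked out (TLE3 is a Groucho-family transcriptional corepressor), which gives a control group and a TLE3 knockout group for RD and for SJRH30, 5 libraries in each of the 4. The labels give no guide, clone or age and do not state whether each tumor is from its own mouse, so p-values measure spread between these libraries, which may be technical. The deposited values were the authors' normalized counts, rounded to whole numbers, with library totals of 23.31 M to 60.69 M. The 20 libraries were not alike. RD knockout 5 and SJRH30 control 3 had 32105 and 29206 genes above 0 against 37072 to 42412 in the 18 others, and carried 32.4% and 20.4% mitochondrial counts. These libraries have weight 0 in the authors' own mean, and results are given with all 20 libraries and with the 18 others, called deep here.

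Of the rhabdomyosarcoma markers MYOG, MYOD1, DES, CDH15 and CHRNA1 were above 0 in every library, whereas MYF5 was at most 13 and at 0 in 9 libraries. TLE3 RNA was on average lower in RD libraries labelled knockout and higher in SJRH30 libraries labelled knockout, with overlapping ranges in both lines. It ranged from 1270 to 2622 in RD control and 424 to 1547 in RD TLE3 knockout, and from 185 to 638 in SJRH30 control and 582 to 967 in SJRH30 TLE3 knockout. In limma its log2 change was -0.69 ± 0.34 (SE) with adjusted p = 0.606 in RD and 0.85 ± 0.37 with adjusted p = 0.557 in SJRH30. Whether TLE3 protein was lost cannot be read from these RNA values. Groups are therefore named by their labels, and each knockout direction below refers to the libraries labelled TLE3 knockout.

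Of the 84 genes, 67 had a promoter entry in RefSeq (GRCh38.p14). A TOP tract was searched as a C at the annotated start followed by at least 4 further bases that are each C or T, on the coding strand. It began at an annotated start in 47 of the 67 genes (70.1%), against 1404 of 27305 genes (5.14%) with an entry. Counted over starts, it stood at 47 of 83 member starts (56.6%) and at 1429 of 35116 starts of all genes (4.07%). Among the standard genes 46 of 62 had it, and among the copies 1 of 5, RPL22L1. The windows below run from 30 bases before to 20 bases from the annotated start. They show RPL12, RPL21, RPL31 and RPS16, which are among the genes with the largest differences between the lines, RPL39, and 4 of the copies beside their partners. Capitals mark the tract, or the annotated first base alone where no tract begins there. Where a gene has several starts, one with a tract is shown if there is one.
RPL12, chr9:127451387-127451436, minus strand: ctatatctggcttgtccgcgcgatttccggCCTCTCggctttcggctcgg
RPL21, chr13:27251528-27251577, plus strand: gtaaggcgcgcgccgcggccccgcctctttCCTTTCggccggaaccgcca
RPL31, chr2:101002259-101002308, plus strand: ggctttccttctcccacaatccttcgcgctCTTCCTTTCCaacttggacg
RPS16, chr19:39435930-39435979, minus strand: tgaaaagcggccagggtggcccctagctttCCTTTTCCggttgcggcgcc
RPL39, chrX:119791611-119791660, minus strand: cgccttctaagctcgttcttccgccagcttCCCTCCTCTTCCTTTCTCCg
RPL22, chr1:6199576-6199625, minus strand: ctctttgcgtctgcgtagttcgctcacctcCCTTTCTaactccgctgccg
RPL22L1, chr3:170870176-170870225, minus strand: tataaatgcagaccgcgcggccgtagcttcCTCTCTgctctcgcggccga
RPL26, chr17:8383174-8383223, minus strand: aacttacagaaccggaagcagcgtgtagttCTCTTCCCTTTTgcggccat
RPL26L1, chr5:172958699-172958748, plus strand: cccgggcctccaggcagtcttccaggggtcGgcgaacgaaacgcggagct
RPL10, chrX:154398347-154398396, plus strand: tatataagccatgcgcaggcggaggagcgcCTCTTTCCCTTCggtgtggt
RPL10L, chr14:46651762-46651811, minus strand: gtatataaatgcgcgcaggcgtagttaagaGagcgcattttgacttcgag
RPS27, chr1:153990732-153990781, plus strand: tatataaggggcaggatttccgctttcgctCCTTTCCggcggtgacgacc
RPS27L, chr15:63157458-63157507, minus strand: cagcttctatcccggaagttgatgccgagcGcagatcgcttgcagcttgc
The tracts shown ranged from 6 bases, as in RPL12, to 19 bases in RPL39. RPL10L, RPL26L1 and RPS27L, 3 of the copies, have a G at the start shown where their partners begin with a tract.

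Together the ribosomal protein genes made up a large part of each library. RPS29 was left out of this sum, because most of its count coincides with that of an overlapping RNA as described below. The 83 others took 6.77%, 8.14%, 8.21%, 9.41% and 8.14% of all normalized counts in RD controls 1 to 5. The RD knockout libraries held 8.51%, 6.70%, 9.19%, 7.23% and 4.62%. SJRH30 control tumors held 15.1%, 16.9%, 5.59%, 15.3% and 14.4%, and SJRH30 knockout tumors 12.9%, 11.6%, 14.3%, 7.56% and 13.0%. All 4 deep SJRH30 controls lay above every RD library, and their mean share of 15.4% ± 1.05 (SD, n = 4) was 1.89 times the RD control mean of 8.13% ± 0.935 (SD, n = 5). In each of the 4 groups the lowest share belonged to the library with the highest mitochondrial share, which was 8.38% in RD control 1, 32.4% in RD knockout 5, 20.4% in SJRH30 control 3 and 16.9% in SJRH30 knockout 4. Whether mitochondrial RNA sets these shares was not tested. The large to small subunit ratio of these counts was 1.39 to 1.69 in 19 libraries and 2.05 in SJRH30 control 3. In tumors, a change in the number of cells of a type and a change in RNA per cell cannot be told apart.

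**Figure D1:**
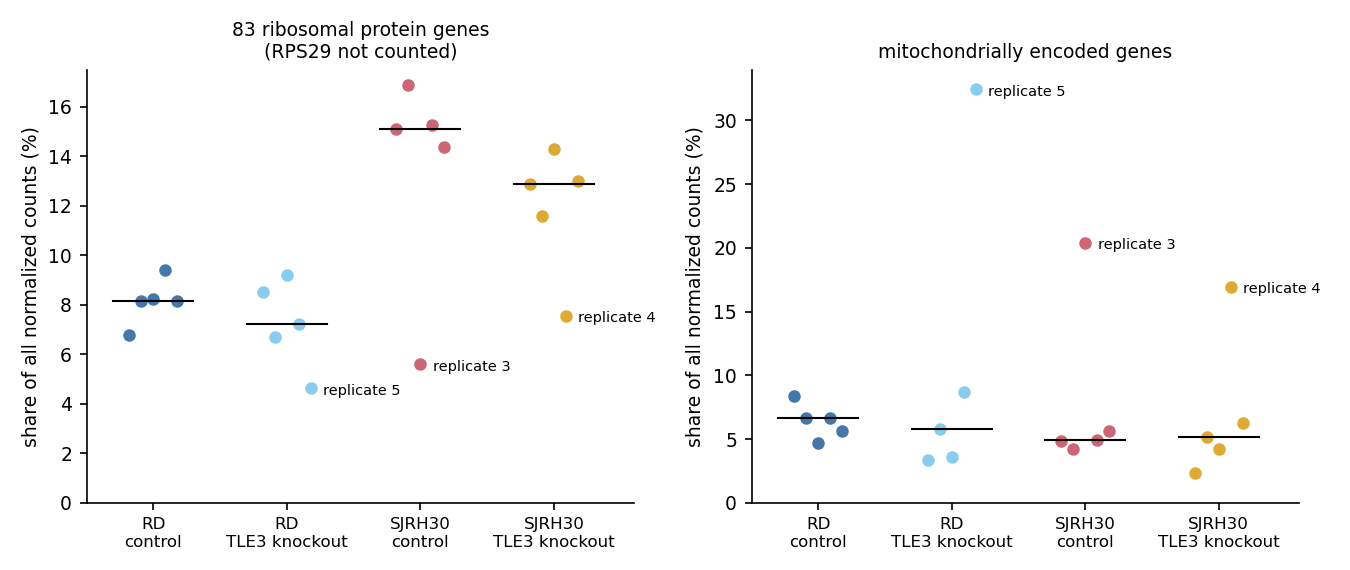
Share of all normalized counts (%) taken by 83 ribosomal protein genes (left) and by mitochondrially encoded genes (right) in each of the 20 libraries, with bars at the group medians. SJRH30 controls other than replicate 3 lie at 14.4% to 16.9% against 6.77% to 9.41% in RD controls, and the labelled replicates stand low on the left and high on the right.

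On the deposited scale, most of the 84 genes had higher mean log2 values in SJRH30 than in RD groups. How the authors scaled the libraries is not stated, and the dependence on scale is given below. Between the controls, 24 of 84 genes rose in SJRH30 (28.6%), none fell, and 60 did not pass the test (limma, Benjamini-Hochberg adjusted p below 0.05 over all genes), beside 6.23% of all 44294 genes called higher and 18.7% called in either direction. The median log2 fold change was 0.90, against -0.45 over all genes. Without SJRH30 control 3 alone, and also in the deep libraries, 69 of the 84 rose, none fell and the median was 1.48, beside 18.1% of all genes called higher and 40.4% in either direction. The 69 included all 24. Without RD control 2 the count was 15, and the share of all genes called in that fit is not given. The authors' deposited table calls 69 of the 84 higher and 2 lower, which is 84.5% beside 41.0% of all genes.

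Genes of both subunits took part. In the deep libraries 41 of 46 standard large subunit genes and 25 of 31 standard small subunit genes rose, with medians of 1.63 and 1.42 on the log2 scale. RPL12, which lies at the base of the stalk where elongation factors bind, had the largest difference. The RD controls held 16662, 20629, 27650, 24959 and 22666 normalized counts of it, the SJRH30 controls 126355, 267351, 19500, 173677 and 127790. Apart from SJRH30 control 3, every SJRH30 control lay above every RD control. RPL12 rose by 2.28 ± 0.55 (SE, adjusted p = 0.00493, limma) and by 2.90 ± 0.36 in the deep libraries (adjusted p = 7.67e-07).

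For RPL31, a large subunit protein near the exit of the nascent chain, the RD controls gave 16062, 17924, 18721, 34295 and 18703. In the SJRH30 controls it stood at 107299, 153883, 17986, 115424 and 112359, again apart from the RD values save in control 3. It rose by 2.02 ± 0.50 (SE, adjusted p = 0.006, limma), and by 2.57 ± 0.33 in the deep libraries. RD controls held 11278, 15882, 19443, 14760 and 13063 counts of RPL21, and SJRH30 controls 98208, 71541, 10872, 61037 and 104250. It rose by 1.90 ± 0.48 (adjusted p = 0.00742, limma), and its 45 pseudogenes with values summed to 15.4 counts per 100 of its own. The other members of the upper end were the copies RPL26L1 and RPL39L, described below. At the lower end stood RPL3L (-1.95 ± 1.08), RPS29 (-1.76 ± 0.95), RPL10L (-1.40 ± 0.53), RPL36 (-0.61 ± 0.77) and RPLP2 (-0.45 ± 0.78), and none of these 5 passed the test.

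The same comparison between the knockout groups uses none of the control libraries in its group means. There 17 of the 84 rose in SJRH30, none fell and 67 did not pass, beside 8.01% of all genes called higher and 16.9% in either direction, with a median of 1.01 against -0.08 over all genes. The count was 50 without SJRH30 control 3, which enters through the shared spread, and 47 in the deep libraries, where 12.6% of all genes were called higher and 26.8% in either direction. It was 10 without RD knockout 2, 11 without RD knockout 4 and 9 without SJRH30 knockout 5. The share of all genes called is not given for the fits that leave out 1 library. Whether these shifts are particular to the 84 genes therefore cannot be read from the counts. The authors' deposited table calls 50 of the 84 higher and 1 lower, 60.7% beside 28.2% of all genes. Among the deep libraries 43 genes rose in both comparisons, 62.3% of the 69 between controls and 91.5% of the 47 between knockouts, and 11 rose in neither. The overlap over all genes was not counted, and both comparisons share one estimate of the spread. This sharing therefore cannot be read as particular to the 84 genes.

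RPL21 led between the knockout groups. It stood at 16088, 11599, 15306, 15507 and 14968 in RD knockout and at 146533, 97808, 75763, 91529 and 122805 in SJRH30 knockout, with no overlap, and rose by 2.83 ± 0.48 (SE, adjusted p = 0.00017, limma). RPS16, a small subunit protein whose tail reaches towards the decoding site, stood at 16399, 11252, 20595, 12961 and 15580 in RD knockout and at 74253, 45805, 89294, 63669 and 69883 in SJRH30 knockout. The groups did not overlap, and RPS16 rose by 2.16 ± 0.65 (adjusted p = 0.0238, limma). RPL22, an RNA-binding protein of the large subunit, rose by 1.96 ± 0.37 (adjusted p = 0.00057) and RPL24, which forms a bridge to the small subunit, by 1.83 ± 0.46 (adjusted p = 0.00765). The lowest values were those of RPL3L (-1.97 ± 1.08), RPS29 (-0.65 ± 0.95), RPL10L (-0.16 ± 0.53), RPS28 (-0.12 ± 0.51) and RPL36 (-0.12 ± 0.77), and these did not pass.

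**Figure D2:**
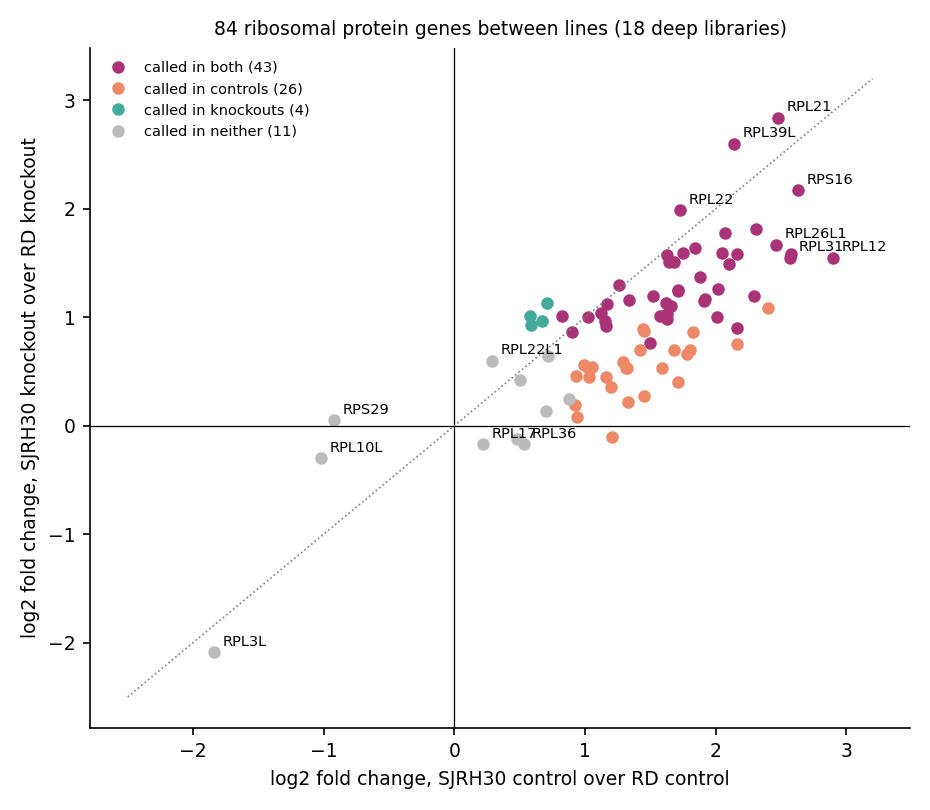
Log2 fold change of SJRH30 over RD for each of the 84 genes, between control groups (horizontal) and between knockout groups (vertical), fitted on the 18 deep libraries, with colors giving adjusted p below 0.05. Most points lie above 0 on both axes, 43 are called in both, and RPL3L and RPL10L lie below 0 on both.

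Genes with and without a TOP tract at a RefSeq start were both among those that rose. Between the deep controls 39 of 47 genes with the tract and 15 of 20 without it rose, with medians of 1.62 and 1.40, and between the knockouts 32 of 47 and 9 of 20 rose, with medians of 1.13 and 0.78. The difference between the kinds was not tested. The increase also depended on the scale of the libraries. On equal totals 15 genes rose and 2, RPL10L (-1.84) and RPS29 (-2.20), fell between the controls, beside 24.6% of all genes called, and 10 rose between the knockouts, beside 15.8%. In both comparisons the share of the 84 called was then below that of all genes. The control median of the 84 was 0.46 while that of all genes moved from -0.45 to -0.82. The distance between those medians was 1.35 as deposited and 1.28 on equal totals.

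When each library was scaled to an equal median over the 84 genes, the shared increase was removed by construction and differences among the genes remained. Between the controls 6 genes then rose and 13 fell relative to the others, and between the knockouts 4 rose and 7 fell, beside 36.0% and 24.7% of all genes called. On this scale too, the share of the 84 called was below that of all genes in both comparisons. RPL12 (1.31 ± 0.26, SE), RPL31 (1.06 ± 0.25) and RPL21 (0.93 ± 0.28) rose relative to the set between controls, and RPL21 (1.75 ± 0.28) did so between knockouts. RPL17 fell relative to the set in both comparisons, by 1.27 ± 0.30 and 1.18 ± 0.30 on the log2 scale. RPL17 ranged from 29847 to 50267 in RD controls and, apart from 6765 in control 3, from 35907 to 51858 in SJRH30 controls. RPL36 and RPS28 also fell relative to the set in both. RPL17 lies within the readthrough gene RPL17-C18orf32, which held 102 counts per 100 of RPL17, so the counts of these genes cannot be told apart.

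Among the proteins with roles outside the ribosome, RPL11, which with RPL5 and 5S ribosomal RNA binds MDM2 and restrains p53 breakdown, rose between the controls by 1.49 ± 0.44 (SE, adjusted p = 0.0204, limma) and between the knockouts by 1.36 ± 0.44 (adjusted p = 0.0366). RPL5 had values of 0.57 ± 0.37 and 0.71 ± 0.37 and passed in neither. RPS19, the gene most often mutated in Diamond-Blackfan anemia, had 1.14 ± 0.81 with all libraries. Among deep libraries it rose by 2.31 ± 0.36 between the controls and by 1.81 ± 0.36 between the knockouts. The stalk proteins RPLP0, RPLP1 and RPLP2, which recruit translation factors, had 0.38, 0.58 and -0.45 between the controls with all libraries, none called. With the deep libraries alone RPLP0 (1.33 ± 0.35) and RPLP1 (1.63 ± 0.34) rose between the controls and RPLP1 alone (1.57 ± 0.34) between the knockouts, while RPLP2 did not pass in either (0.70 ± 0.33 and 0.14 ± 0.33).

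Per kilobase of transcript, in the mean of the deep libraries, the highest normalized counts were those of RPS29 (565290), RPL35 (198940) and RPS18 (197850). RPL35, a large subunit protein at the tunnel exit, rose by 2.16 ± 0.34 (SE) between the controls in the deep libraries, and did not pass between the knockouts (0.75 ± 0.34, adjusted p = 0.114, limma). RPS18, which lies in the head of the small subunit, rose by 2.29 ± 0.35 there and by 1.20 ± 0.35 between the knockouts. Neither passed with all libraries (1.45 ± 0.59 and 1.46 ± 0.65 between the controls).

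The count of RPS29, which encodes a zinc-binding protein of the small subunit, cannot be told apart from that of an overlapping RNA. RPS29 spans chr14:49570984-49599164 on the minus strand (GRCh38), and RN7SL1, the RNA of the signal recognition particle, lies inside that span at chr14:49586580-49586878 on the plus strand. The kit was not stated to mark the strand. A search of the GENCODE transcripts of RPS29 found no exon that overlaps RN7SL1, so the overlap is one of spans. Why the counts of RPS29 and RN7SL1 nearly coincide was not tested. The RD controls held 125440, 84726, 861087, 92375 and 32706 counts of RPS29, of which RN7SL1 alone had 121238, 79897, 854034, 82761 and 28565. The RD knockout libraries held 65407, 275777, 154014, 177205 and 1741492, beside 57588, 270586, 144934, 171314 and 1736533 of RN7SL1. RPS29 thus followed RN7SL1 in each of these libraries. RN7SL1 held 80.1% to 99.7% of the RPS29 count in 19 libraries and 7.78% in SJRH30 control 3, where RPS29 was 3497 and RN7SL1 272. RPS29 less RN7SL1 lay between 3225 and 13834 in the 20 libraries, so the 1741492 of RD knockout 5 came down to 4959.

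**Figure D3:**
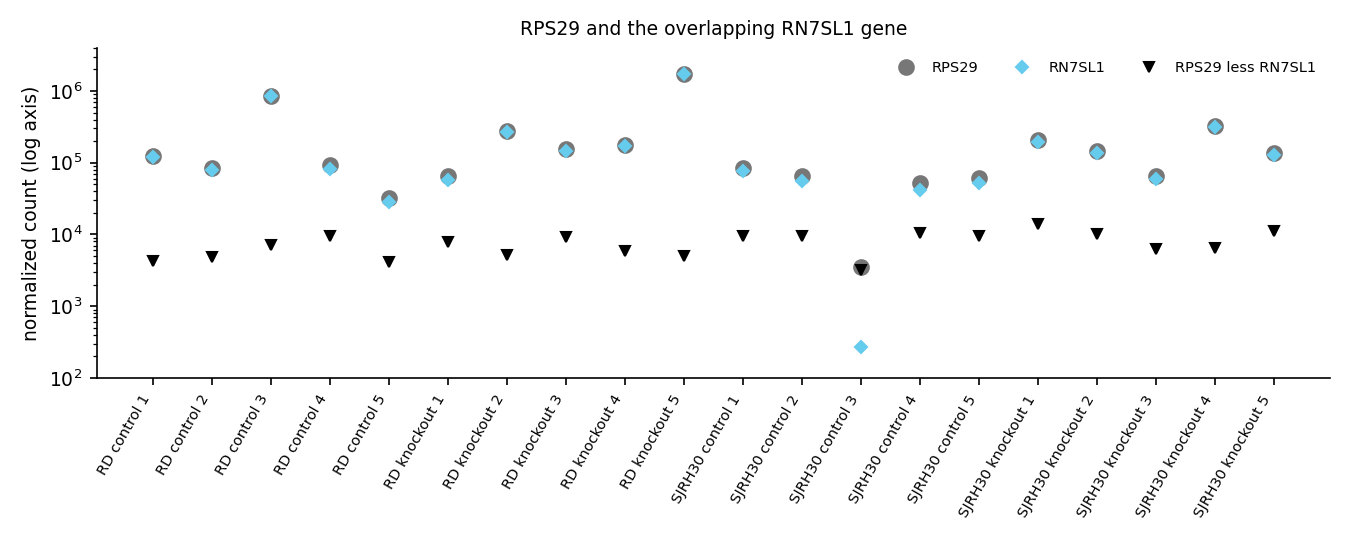
Normalized counts of RPS29, of the RN7SL1 gene that lies inside its span, and of their difference in each of the 20 libraries, on a log axis. The RPS29 and RN7SL1 points coincide except in SJRH30 control 3, while the difference stays between 3225 and 13834.

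Of the 84 genes, 11 overlap a gene that carries at least 90 counts per 100 of their own, and 15 one with at least 50. Besides RPS29 and RPL17 these include RPS4X with PIN4 (104 per 100), RPL15 with NKIRAS1 (101) and RPL5 with DIPK1A (101), and the reads of each pair cannot be separated. Processed pseudogenes are the other source of shared reads. Values were listed for 770 pseudogenes of 74 of these genes, and in 10 genes they summed to more than 10 counts per 100 of the parent, led by RPL9 (59.1) and RPL41 (53.7).

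The 7 copies are less abundant than their partners and differ from each other in pattern. RPL39L is an X-to-autosome retrocopy of RPL39, a small protein that lines the exit tunnel, and is known from testis and from tumors. Its coding sequence is the closest to its partner of the 7 pairs, with 145 of 153 bases identical (94.8%) and a longest shared run of 44 bases. The sequences are shown from the first coding base in GENCODE 29 (GRCh38), minus strand at chrX:119786504-119791643 for RPL39 and at chr3:187120948-187180908 for RPL39L, with the differing bases in capitals.
RPL39: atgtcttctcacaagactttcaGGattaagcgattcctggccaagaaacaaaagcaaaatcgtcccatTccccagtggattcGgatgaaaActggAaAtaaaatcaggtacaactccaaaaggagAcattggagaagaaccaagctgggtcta
RPL39L: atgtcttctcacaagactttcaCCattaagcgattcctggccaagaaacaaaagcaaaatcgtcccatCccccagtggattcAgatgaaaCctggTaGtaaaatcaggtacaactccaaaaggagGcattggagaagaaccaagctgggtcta
RPL39L counts were low in RD, with 56, 79, 41, 79 and 72 in control tumors and 47, 46, 44, 35 and 138 in knockout tumors. SJRH30 control tumors held 316, 369, 120, 213 and 263, and knockout tumors 216, 292, 334, 201 and 305. The control groups did not overlap, nor did the knockout groups. RPL39L rose by 1.90 ± 0.39 (SE, adjusted p = 0.00118, limma) between the controls and by 2.27 ± 0.39 (adjusted p = 0.000178) between the knockouts. RPL39 rose by 1.29 ± 0.44 (adjusted p = 0.0411) and 1.58 ± 0.44 (adjusted p = 0.0138), and RPL39L stayed at 1.29 to 6.78 counts per 1000 of RPL39 in the 20 libraries. The 9 pseudogenes of RPL39 with values summed to 30.9 counts per 100 of RPL39. Whether reads of RPL39 enter the RPL39L count was not tested.

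RPL26L1, a copy of RPL26 that differs in 69 of 435 coding bases, gave 224, 299, 251, 464 and 271 counts in RD control tumors against 1289, 2252, 490, 1529 and 1513 in SJRH30 control tumors. These groups did not overlap even with SJRH30 control 3 included. RPL26L1 rose by 2.12 ± 0.33 (SE, adjusted p = 7.08e-05, limma), the smallest adjusted p of the 84 genes there. Between the knockouts it rose from 263 to 321 in RD to 597 to 1195 in SJRH30, by 1.62 ± 0.33 (adjusted p = 0.00121). RPL26 rose by 1.62 ± 0.35 and 1.16 ± 0.35 in the same comparisons, and its count is shared with an overlapping gene that held 100 per 100.

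RPS27L, a copy of RPS27 that p53 activates, gave 925, 534, 547, 1157 and 636 counts in RD control tumors against 2329, 1349, 1547, 1290 and 2828 in SJRH30 control tumors, with no overlap. It rose by 1.29 ± 0.35 (SE, adjusted p = 0.0111, limma) between the controls and by 1.20 ± 0.35 (adjusted p = 0.0184) between the knockouts, while RPS27 (0.31 ± 0.53 and 0.23 ± 0.53) did not pass. Of 20 p53 target genes tested with all libraries, 0 were called between the controls, beside 18.7% of all genes, and 1 rose between the knockouts, beside 8.01% of all genes called higher. In the deep libraries 5 rose and 1 fell between the controls, and 3 rose and 2 fell between the knockouts, beside 40.4% and 26.8% of all genes called.

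RPL22L1, whose mouse counterpart rises in cells lacking Rpl22, ranged from 892 to 1698 in the RD controls and from 877 to 2272 in the SJRH30 controls. These ranges overlapped, and RPL22L1 (0.15 ± 0.32, SE) did not pass while RPL22 rose by 1.38 ± 0.37 (adjusted p = 0.0111, limma). The median of RPL22L1 per 1000 counts of RPL22 was 73.7 in RD control and 36.8 in SJRH30 control, with ranges of 49.3 to 134 and 18.1 to 57.8 that overlapped. Between the knockouts the medians were 62.6 and 31.4. RPL7L1, a relative of RPL7 with 54.4% coding identity, rose between the knockouts (1.07 ± 0.34, adjusted p = 0.0317), with 0.38 ± 0.34 between the controls.

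RPL10L, an intronless copy of RPL10 needed for sperm formation in mouse, gave 1224, 648, 277, 864 and 697 counts in RD control tumors against 325, 410, 429, 104 and 168 in the knockout tumors. The groups overlapped, and its log2 change of -1.41 ± 0.44 (SE) had an unadjusted p of 0.00586 and an adjusted p of 0.356 in limma. SJRH30 control tumors held 500, 254, 87, 357 and 256 and knockout tumors 169, 244, 737, 145 and 132, with a change of -0.16 ± 0.56. The longest run it shares with RPL10 is 50 bases, and RPL10 stood at 19366 to 39238 in RD, so some of its reads may be split between them.

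RPL3L takes the place of RPL3 in mature skeletal muscle and heart. RD control tumors held 2263, 40, 53, 990 and 362 counts of it, and RD knockout tumors 41, 1689, 26, 51 and 64. SJRH30 control tumors held 24, 111, 54, 459 and 29, and SJRH30 knockout tumors 21, 25, 32, 24 and 14. High values came from a few libraries, 3 of them RD controls, and its changes did not pass in RD (-1.62 ± 1.18, SE, adjusted p = 0.712, limma) or SJRH30 (-1.65 ± 0.73, adjusted p = 0.565). The libraries high in RPL3L were high in muscle fibre genes. The mean log2 value of 11 muscle fibre entries (ACTA1, MYH1, MYH2, MYH3, MYH8, MYLPF, TNNT3, TNNC2, CKM and TTN, which has 2 identifiers) was 14.9 in RD control 1, 13.9 in RD control 4, 14.6 in RD knockout 2 and 13.1 in SJRH30 control 4. It was 11.95 in RD control 5 and at most 11.04 in the 15 others. Host muscle and differentiated tumor cells could not be told apart, and their part in RPL3L was not tested.

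**Figure D4:**
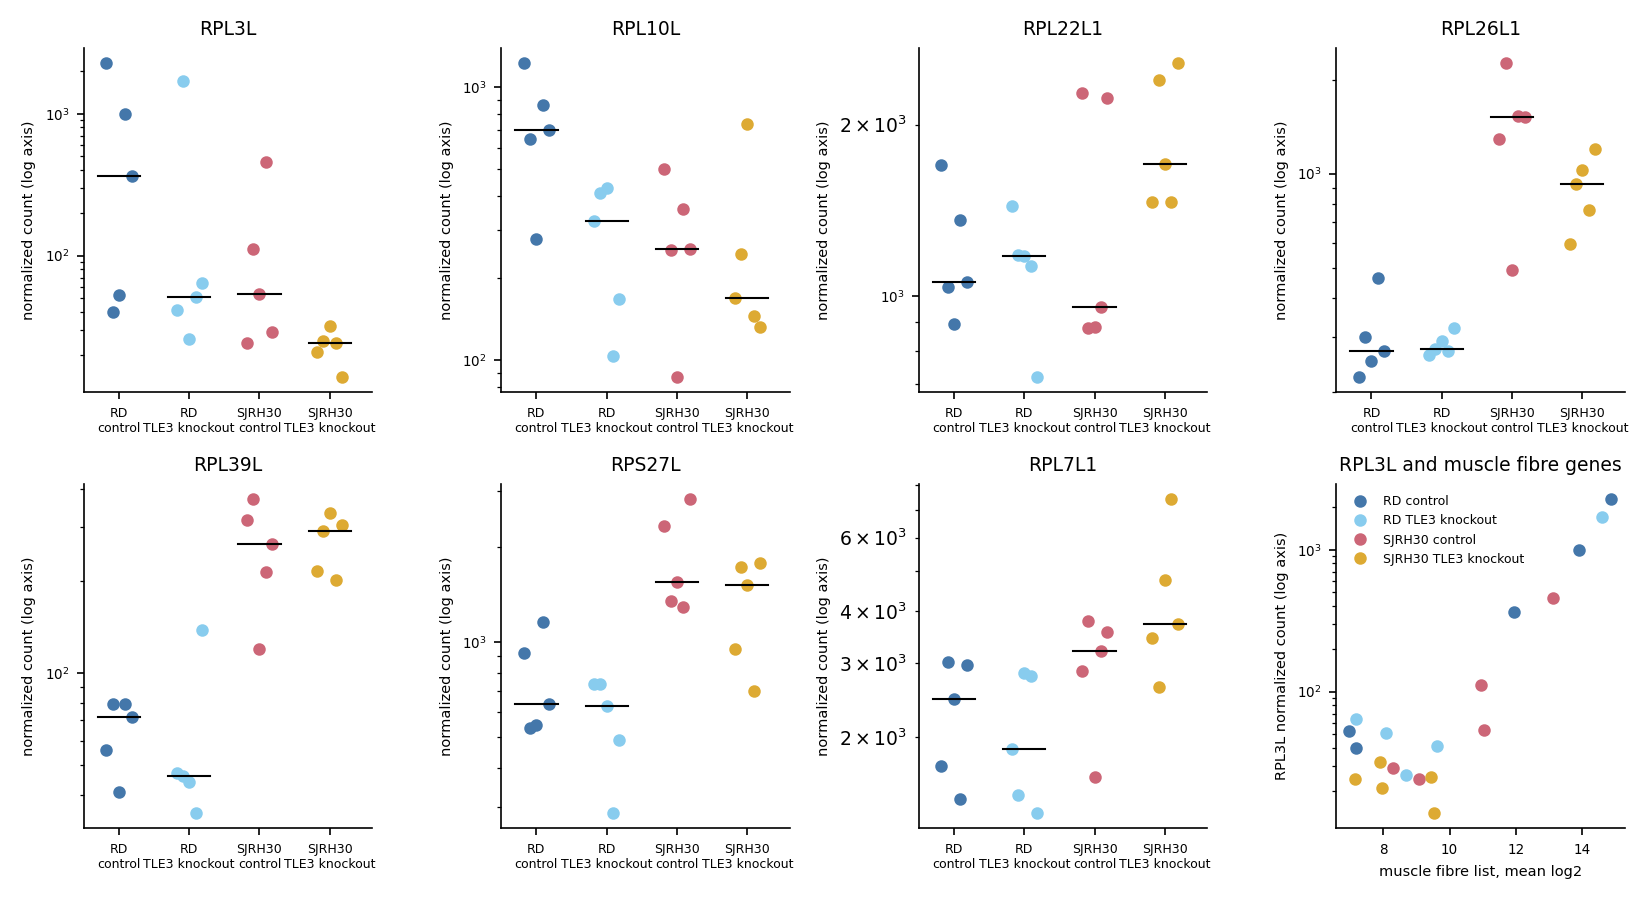
Normalized counts of the 7 copies in each library on log axes, by group, with bars at the medians, and RPL3L against the mean log2 value of the muscle fibre genes (last panel). RPL26L1 lies higher in every SJRH30 library than in any RD library, RPL39L does so between the controls and between the knockouts taken separately, the control groups of RPL10L and RPL22L1 overlap, and RPL3L is highest in the 4 libraries with the most muscle fibre RNA.

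No ribosomal protein gene passed the test in either comparison of TLE3 knockout with control when all libraries were used. In RD, 0 of 84 were called by limma and 1 had an unadjusted p below 0.05, beside 0.142% of all 42917 genes called and 8.42% with an unadjusted p below 0.05. The median log2 change was -0.05, against -0.09 over all genes, and the standard large and small subunit genes had medians of -0.01 and -0.07. With the deep libraries alone 0 were called, 1 had an unadjusted p below 0.05 and the median was 0.00, beside 0.332% of all genes called, and the authors' deposited table calls 0 of 84 beside 0.494% of all genes. Low values besides RPL3L and RPL10L included those of RPL23A (-0.42 ± 0.30, SE) and RPS27L (-0.41 ± 0.30). The highest were RPS29 (0.99 ± 0.89), RPS6 (0.32 ± 0.27), RPL17 (0.31 ± 0.29), RPS27 (0.28 ± 0.31) and RPL39 (0.28 ± 0.30).

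In SJRH30, 0 of 84 were called by limma and 2 had an unadjusted p below 0.05, beside 0.00999% of all 40028 genes called and 8.59% with an unadjusted p below 0.05. The median was -0.03, against 0.17 over all genes. The lowest values besides RPL3L were those of RPL23 (-0.98 ± 0.56, SE), RPL27 (-0.86 ± 0.56) and RPL6 (-0.84 ± 0.62). The highest were RPS29 (2.10 ± 0.90), RPLP1 (1.15 ± 1.02), RPS27A (1.03 ± 0.63), RPL21 (0.93 ± 0.72) and RPS3A (0.93 ± 0.72). Without SJRH30 control 3 the picture of the values differed. The median of the 84 became -0.59, against 0.03 over all genes, 68 were below 0, and 26 had an unadjusted p below 0.05 (19.6% of all genes did), with 0 called by limma beside 0.486% of all genes. The authors' deposited table, which also gives that library no weight in its mean, calls 10 of the 84 lower and 0 higher (11.9% beside 6.59% of all genes), among them RPL6, RPLP0 and RPL35.

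RPL6, a large subunit protein, shows this dependence. SJRH30 control tumors held 109929, 142383, 29033, 107747 and 122711 counts of it, and knockout tumors 41079, 51002, 66869, 33900 and 67911. All knockout values lay below the 4 deep controls and above control 3.

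The difference of the knockout effects between the lines was tested as an interaction over all 20 libraries, and 0 of 84 were called by limma, with 0 at an unadjusted p below 0.05, beside 0.00903% and 6.01% of all 44294 genes. Among the deep libraries 0 were called and 14 had an unadjusted p below 0.05, beside 0.197% and 10.3% of all genes, and the median was -0.55 against 0.05 over all genes. The ends of the range with all libraries were RPL23 (-0.91 ± 0.56, SE), RPL6 (-0.83 ± 0.63), RPL27 (-0.81 ± 0.54), RPL12 (-0.80 ± 0.78) and RPL35 (-0.67 ± 0.83), and RPL10L (1.25 ± 0.75), RPS29 (1.11 ± 1.34), RPLP1 (1.02 ± 1.05), RPL21 (0.93 ± 0.68) and RPS27A (0.92 ± 0.64).

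Within the SJRH30 controls the 84 genes separated by base composition. GC content of their coding sequences ran from 40.4% to 63.0%. The median log2 value of the 28 genes richest in GC exceeded that of the 28 poorest by 0.34, 1.86, 1.69 and 0.26 in controls 1, 2, 4 and 5, and lay 2.27 below it in control 3. In the 15 other libraries this distance lay between -0.20 and 0.91. Set against the mean of controls 1 and 5, all 28 GC-rich genes were higher in control 2 (median 1.40) and in control 4 (median 0.80). The GC-poor genes had medians of -0.24 and -0.67, with RPL22L1 lowest in control 2 at -1.36 and RPL39 lowest in control 4 at -1.40. In control 3 the medians were -4.20 for GC-rich and -1.82 for GC-poor genes, with RPL10 lowest at -5.56. Across the 84 genes of one library, which share its depth, the difference correlated with GC content at r = 0.86 in control 2, 0.81 in control 4 and -0.57 in control 3. Over other coding genes with a mean of at least 100 the same GC-rich minus GC-poor distance was 1.59, 1.11 and -2.30 in controls 2, 4 and 3, so the pattern was not limited to ribosomal proteins.

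**Figure D5:**
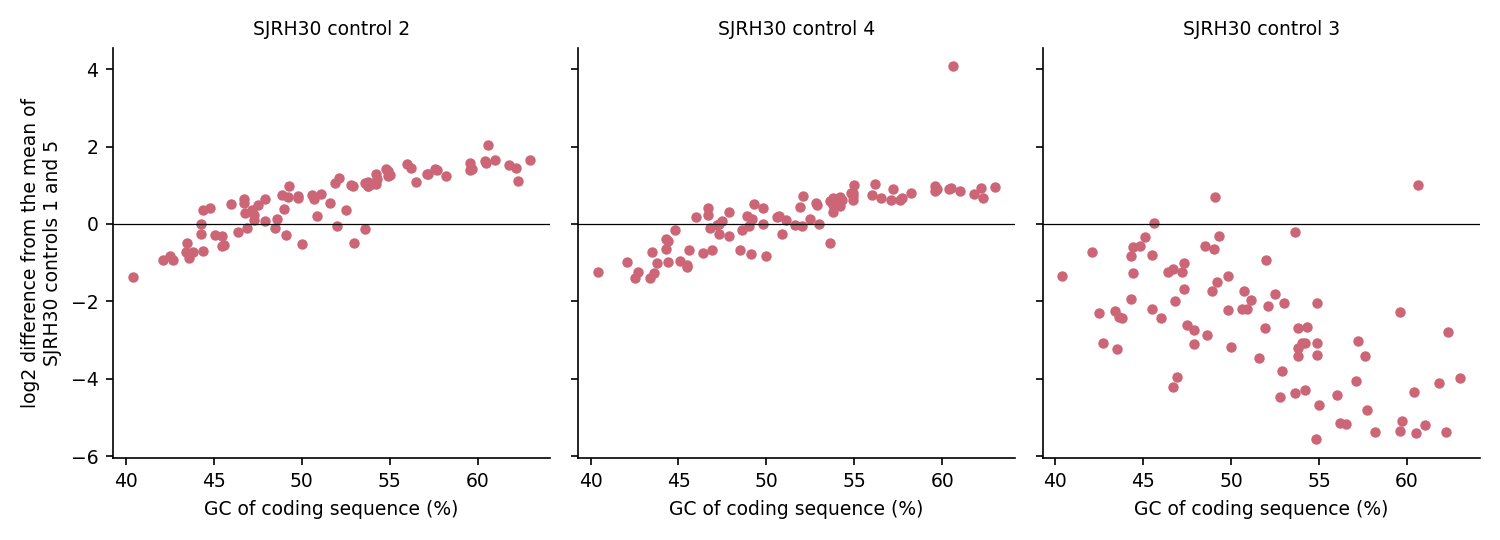
Log2 difference of each of the 84 genes in SJRH30 controls 2, 4 and 3 from the mean of SJRH30 controls 1 and 5, against the GC content of its coding sequence (%). The difference climbs with GC in controls 2 and 4 (r = 0.86 and 0.81) and falls in control 3 (r = -0.57).

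Values were compared again after a smooth trend on GC content had been removed from each deep library, an alternative chosen after seeing the data. The correlation of the SJRH30 knockout change with GC content over the 84 genes went from -0.52 to -0.04, and the median change from -0.59 to -0.41. RPL6 was then called lower (-1.43 ± 0.29, SE, adjusted p = 0.0291, limma), 1 of 84 or 1.19% beside 1.29% of all genes. Between the controls 71 of the 84 rose with a median of 1.30, and 1, RPL10L (-1.24, adjusted p = 0.041), fell, beside 42.2% of all genes called. Between the knockouts 53 rose, beside 30.2%. Without SJRH30 controls 2, 3 and 4 altogether, 55 rose in each of the comparisons between lines and none fell, beside 18.7% of all genes called between the controls and 30.1% between the knockouts.

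Other genes of the translation machinery were read from lists chosen with earlier results of these data known, and their counts, like those of the 84 genes, were higher in the deep libraries. With all libraries 6.23% of all genes were called higher between the controls and 8.01% between the knockouts, and in the deep libraries 18.1% and 12.6%. Of 32 translation factors and other TOP mRNAs, 6 rose between the controls and 8 between the knockouts, with TPT1 (1.43 ± 0.37 and 1.44 ± 0.37, SE, limma) and NPM1 (1.34 ± 0.36 and 2.07 ± 0.36) leading, and 21 and 13 rose in the deep libraries. None of the 32 fell in these 4 fits. Of 49 ribosome biogenesis factors, 7 rose and 1, WDR12, fell between the controls (FBL, the methyltransferase of box C/D snoRNPs, rose by 2.01 ± 0.53), and 19 rose between the knockouts, led by NOLC1 (2.34 ± 0.35). In the deep libraries 28 rose in each comparison, and 2, DDX21 and WDR12, fell between the controls. Of 14 host transcripts of snoRNAs, which guide ribosomal RNA modification, 5 and 7 rose with all libraries and 12 and 9 in the deep ones. Of 78 mitochondrial ribosomal protein genes, 12 and 19 rose with all libraries, with medians of 0.55 and 0.78. In the deep libraries 52 rose and 1, MRPL42, fell between the controls and 33 rose between the knockouts, with medians of 1.13 and 0.64. The cytosolic genes had medians of 0.90 and 1.01 with all libraries and 1.48 and 0.97 in the deep ones. In these 4 lists no gene was called in the RD or SJRH30 knockout comparisons, with all libraries or with the deep ones.

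MYC ranged from 840 to 2236 in RD control and from 479 to 1869 in SJRH30 control, and did not pass (-0.27 ± 0.44, SE, adjusted p = 0.702, limma). MYCN rose by 2.04 ± 0.35 (adjusted p = 0.000235) between the controls and 2.52 ± 0.35 (adjusted p = 1.68e-05) between the knockouts. MTOR, the kinase that controls TOP mRNA translation, rose by 1.21 ± 0.29 (adjusted p = 0.00462) and 1.09 ± 0.29 (adjusted p = 0.0103). Both belong to a list of 16 MYC and TOP translation regulators, of which 4 and 5 rose, beside 6.23% and 8.01% of all genes. In the deep libraries 8 and 6 rose, beside 18.1% and 12.6%, with TSC2 (1.59 ± 0.30) among those between the controls. There 1, EIF4EBP1 (-0.93 ± 0.34), fell between the knockouts. The part of these regulators in the ribosomal protein values was not tested. Outside the naming rule, RACK1 had 1.18 ± 0.59 between the controls and 1.37 ± 0.59 between the knockouts, and FAU 0.42 ± 0.44 and 0.70 ± 0.44, and neither passed with all libraries. In the deep libraries RACK1 rose by 1.92 ± 0.37 (adjusted p = 0.000204) between the controls and by 1.36 ± 0.37 (adjusted p = 0.00714) between the knockouts, and FAU rose by 0.97 ± 0.27 (adjusted p = 0.00601) between the controls, with 0.67 ± 0.27 (adjusted p = 0.0689) between the knockouts.

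Markers of other cell types were called in some comparisons, and their counts stand beside the share of all genes called in either direction. With all libraries and with the deep ones that share was 0.142% and 0.332% in the RD knockout comparison. It was 18.7% and 40.4% between the controls and 16.9% and 26.8% between the knockouts. In the SJRH30 knockout comparison of the deep libraries it was 0.486%. The 10 macrophage markers summed to 4498 to 10982 counts in RD control tumors and 2102 to 4415 in RD knockout tumors, to 1351 to 8798 in SJRH30 control tumors and 2974 to 9500 in SJRH30 knockout tumors. In RD knockout tumors 1 of the 10 was at 0 in a library and in SJRH30 control tumors 2 were. In the RD knockout comparison 1 of the 10, C1QB, fell by 2.11 ± 0.34 (SE, adjusted p = 0.0255, limma), and 4 fell in the deep libraries. The 8 fibroblast markers summed to 90525 to 228372 in RD control and 33509 to 107659 in SJRH30 control, and 2 of the 8 fell between the controls, DCN by 2.61 ± 0.58 and PDGFRB by 2.07 ± 0.55, with 4 falling in the deep libraries. Between the knockouts 3 of the 8 fell and 1, PDGFRA, rose, and in the deep libraries 5 fell and 1 rose. The 8 endothelial markers summed to 1540 to 3114 in RD control and 879 to 2147 in SJRH30 control. Of these 1, PECAM1, fell between the controls by 2.20 ± 0.28 (adjusted p = 5.13e-06), and 3 fell in the deep libraries. Neither count lies above the share of all genes called. PECAM1 rose by 1.80 ± 0.28 (adjusted p = 0.0064) in the SJRH30 knockout comparison of the deep libraries. With the mean macrophage value as a covariate, 57 of the 84 genes were called higher between the controls, beside 30.9% of all genes called. That mean log2 value was 4.90 in SJRH30 control 3, against 8.31 to 9.12 in the 4 other SJRH30 controls. The fit therefore cannot tell macrophages from the other traits of that library. The part of these cell types in the ribosomal protein values was not tested. No step that removes mouse reads is named in the submitters' processing notes, and the part of mouse host RNA in the counts of these conserved genes was not tested.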

How the data were processed

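Poly(A) RNA of 20 tumors was sequenced. Per the submitters' processing notes, the tools were FastQC, fastp 0.20.1, STAR 2.7, featureCounts and edgeR, with genome build GRCh38.p7. Each deposited value is a score, a count that the authors normalized and then rounded, and no count model was applied to it. The depth in reads is not given. Per the file headers the authors' deposited comparison tables hold a ratio (fold change), its log2 value, a p-value and an adjusted p-value, and a mean signal per gene.

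Genes reaching 1 in 5 or more of the fitted libraries were tested on log2(value + 1), which understates changes of low genes, with limma 3.58.1 in R 4.3.3 using a mean-variance trend, 2-sided, with Benjamini-Hochberg adjustment at 0.05. Knockout comparisons used the 10 libraries of their line, the others all 20 with 4 group means. The script was tested on simulated data. GC content is that of the GENCODE 29 coding sequence, and levels per kilobase use the shortest transcript that carries it. Alternatives were other pseudocounts, filters and scalings, left-out libraries, array weights, a replicate block, a macrophage covariate and a GC correction (spline, 5 degrees of freedom). The paragraphs name the 5 highest and 5 lowest genes of each comparison, the copies with their partners, the 3 most abundant genes per kilobase, the stalk genes, RPL5, RPL11 and RPS19, except a few that are not reported here. Genes and lists were chosen with earlier results of these data known.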

Additional observations from a re-analysis of the deposited data

Results flagged for a closer look

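In 84 sets of 5 libraries (21 quantities in 4 groups) the highest or lowest library was compared with the nearest other one, relative to the range of the group. The rule marks about 1 set in 20 by chance if values are independent and normally distributed, and 12 were marked. Several of these counts are skewed and the sets share libraries. The number marked therefore cannot be set against that rate.

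RPL3L stood alone at 1689 in RD TLE3 knockout 2, with the next library at 64, and at 459 in SJRH30 control 4, with the next at 111. RPL10L was at 737 in SJRH30 TLE3 knockout 3, with the next at 244. RPL39L was at 138 in RD TLE3 knockout 5, a library with few genes above 0, with the next at 47. RPL21 was lowest in RD TLE3 knockout 2 at 11599, with the next at 14968, and RPL22 was lowest in the same library at 12235, with the next at 18033. RPL31 was at 34295 in RD control 4, with the next at 18721. RPL17 was at 50267 in RD control 3, with the next at 35321.

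RPS29 stood at 861087 in RD control 3, with the next at 125440, and at 1741492 in RD TLE3 knockout 5, with the next at 275777. SJRH30 control 3 was apart in the share of counts taken by the 83 other ribosomal protein genes, at 5.586% with the next at 14.37%, and in RPS29 less RN7SL1, at 3225 with the next at 9444.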

How the results depend on the processing

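Every alternative kept the 2 knockout comparisons and their difference at 0 called genes, except that the GC correction in the deep libraries gave 1 in SJRH30. Counts here take both directions, and a percentage is the share of all genes called. Between the controls (24 as deposited, 18.7%) the count was 69 in the deep libraries (40.4%) and 68 with array weights. It was 57 with a macrophage covariate (30.9%) and 49 with GC correction. With GC correction in the deep libraries it was 72 (42.2%), of which 1 fell, and without SJRH30 controls 2, 3 and 4 it was 55 (18.7%). Between the knockouts (17, 16.9%) it was 31 with a mean of at least 100 and 10 on equal totals (15.8%). On equal member medians it was 11 (24.7%), of which 7 fell. It was 47 in the deep libraries (26.8%), 58 with array weights and 37 with GC correction. With GC correction in the deep libraries it was 53 (30.2%), and without SJRH30 controls 2, 3 and 4 it was 55 (30.1%). Counts between the controls on equal totals and equal member medians are given above. Leaving out 1 library gave 15 to 69 between controls, 9 to 50 between knockouts and 0 to 0 in the 3 others. The member medians then ranged from -0.14 to 0.04 (RD), -0.59 to 0.28 (SJRH30), 0.72 to 1.48 (controls), 0.91 to 1.10 (knockouts) and -0.52 to 0.30 (difference).

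The medians moved by more than 1 SD between libraries to 0.35 (RD), 0.68 (knockouts) and -0.75 (difference) with a macrophage covariate, to 0.68 and 0.61 (knockouts) on equal totals with and without mitochondrial genes, and to -0.07 in both line comparisons on equal member medians. That scale removes the shared increase by construction, so standard genes above 0 went from 71 to 33 of 77 between controls and from 72 to 32 between knockouts. Named genes that were called on either scale and changed sign were RPL3 (-0.82 and -0.83), RPL7L1 (-0.01), RPS27 (-0.85) and RPS3A (-0.80). The cause of the other shifts was not tested.

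The replicate block gave 15 called between controls and 12 between knockouts, and changed no other count. The share of all genes called with the block is not given. Deviations from the group means correlated at -0.634 to -0.306 between same-numbered libraries of RD control and knockout, and at -0.418 to 0.257 in SJRH30. These values cannot tell whether the numbers pair samples, and the main fits do not use them as pairs. Between the lines 0 of 5 control libraries and 3 of 5 knockout libraries correlated best with their own number.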
